A study of Mus musculus with 20 samples.

Results

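The transgene effect shared by trained and untrained mice is the difference between muscle of 10 transgenic mice (TG) and muscle of 10 wild-type mice (WT), taken within each training state and averaged over both states. Mice were assigned by their titles and source names, and all 20 arrays of the series enter the comparison. The 4 groups are untrained transgenic, trained transgenic, untrained wild-type and trained wild-type mice, with 5 mice and 5 arrays each. The series title names over-expression of MHC-I and endurance training. The labels state neither the transgene's construct and promoter nor the muscle, strain, sex, age and training protocol. The samples' description field names 1 genotype and 1 training state throughout, against the titles and source names, and was not used. Single mice are named by title, in which TGUT and TGT are untrained and trained transgenic mice and WTUT and WTT untrained and trained wild-type mice.

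MHC-I can stand for class I molecules of the major histocompatibility complex, cell-surface proteins that present peptides to T cells. Over-expression of class I molecules in muscle fibres is known from mouse models of inflammatory muscle disease, where unfolded protein responses have been studied. Skeletal muscle is built from slow (type I) and fast (type II) fibres, which carry different versions of myosin, troponin, the calcium pump and the Z-disc proteins, and slow fibres rely more on oxidation of fuels. Endurance training is known for its effects on mitochondria and on fibre type.

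Transcript levels were read on Affymetrix 3' arrays, with 1 linear intensity for each probe set. Array medians lay between 157 and 175, and pairs of arrays correlated with r from 0.923 to 0.991 over the tested probe sets on the log2 scale. The number of arrays limits the precision. All 12 skeletal muscle defining genes were tested, none was called, and their summed intensity ran from 155489 to 165567 in transgenic and from 157243 to 163996 in wild-type mice. Differences are given on the log2(intensity + 66.7) scale as transgenic minus wild type, with the standard error, and a probe set was called at an adjusted p under 0.05 in limma. A gene stands for its brightest tested probe set, and because fold changes include the added constant, those of dim genes are understated. In whole muscle, fewer fibres or cells of a type and less RNA per cell cannot be told apart. The titles do not say whether mice were littermates or were processed together, so p-values measure the spread between these mice.

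Of 13575 tested probe sets, 167 (1.23%) were called in the averaged comparison, 44 (0.324%) of them higher and 123 (0.906%) lower in transgenic muscle. At 1 probe set per gene, 102 of 8486 genes (1.2%) were called, 25 higher (0.295%) and 77 lower (0.907%). The median over all genes was 0.01 log2. Quantile normalization changed the split to 113 higher of 234 called, and 150 of the 167 were called under both scalings. Without the trained wild-type mouse whose array holds 822 empty cells, 525 probe sets were called, and without TGUT-147 the number was 336. Leaving out 1 of 9 other mice brought the count to between 79 and 103. In all 20 leave-one-array-out fits, 73 of the 167 stayed called, 57 lower and 16 higher.

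Genes of the slow-fibre sarcomere were lower in transgenic muscle and gave the largest difference of any called gene, in Myl2. All 8 tested slow fibre contractile genes lay below 0, and 6 of them were called lower, against 0.907% of all genes. The list's median was -1.19 log2 against 0.01 for all genes. Without probe sets of the kinds that can bind several transcripts, 4 genes of this list were tested and 3 of them called, with the same median. Myl2, the regulatory light chain of slow and cardiac myosin, ranged from 95.6 to 606 intensity in transgenic mice (median 232) and from 739 to 3379 in wild-type mice (median 1499). No transgenic mouse reached the lowest wild-type mouse. The difference was -2.38 ± 0.28 log2, a 5.21-fold lower level (adjusted p = 0.00032). Tnni1, slow troponin I, ranged from 106 to 218 in transgenic mice (median 149.9) and from 282 to 1129 in wild-type mice (median 557), again without overlap. It dropped by 1.51 ± 0.18 log2 units (2.85-fold, adjusted p = 0.00032).

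Tnnt1, slow troponin T, ran from 75.0 to 686 intensity in transgenic mice (median 240.1) and from 458 to 2329 in wild-type mice (median 1059). All transgenic mice except TGUT-131 lay below every wild-type mouse, and the difference was -1.99 ± 0.29 log2 (3.96-fold lower, adjusted p = 0.00187). Myh7, the slow myosin heavy chain, ran from 299 to 800.0 in transgenic mice (median 369) and from 396 to 2797 in wild-type mice (median 1123). The groups overlapped, with 6 of 10 transgenic mice below all wild-type mice, and the difference was -1.27 ± 0.26 log2 (adjusted p = 0.0201). Myoz2, calsarcin-1, which tethers calcineurin at the slow-fibre Z-disc, ran from 172 to 919.6 in transgenic mice (median 478) and from 718 to 1812 in wild-type mice (median 1153), a difference of -1.11 ± 0.21 log2 (adjusted p = 0.0125).

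Myl3, the essential light chain of slow myosin, was read by 3 probe sets that differed in size of change. On the brightest one, transgenic mice spanned 826 to 1531 intensity (median 1065) and wild-type mice 1293 to 2874 (median 1928), a fall of 0.72 ± 0.16 log2 units (adjusted p = 0.0346). That call held in 10 of 20 leave-one-array-out fits. The other probe sets gave -1.82 ± 0.23 and -2.31 ± 0.30 log2, with adjusted p = 0.00072 and 0.000792. On the former, the transgenic mean lay below the filter, at an intensity of 126.2. That probe set was thus tested only because of its level in wild-type mice. Tnnc1, troponin C of slow and cardiac muscle, averaged 791 intensity in transgenic and 1095 in wild-type mice and was not called (-0.41 ± 0.11 log2, adjusted p = 0.0691). Tpm3, slow tropomyosin, differed by -0.06 ± 0.07 log2 on its brightest probe set (adjusted p = 0.675). A second, dimmer Tpm3 probe set averaged 170.1 in transgenic and 818 in wild-type mice and dropped by 1.82 ± 0.27 log2 units (adjusted p = 0.00221).

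**Figure D1:**
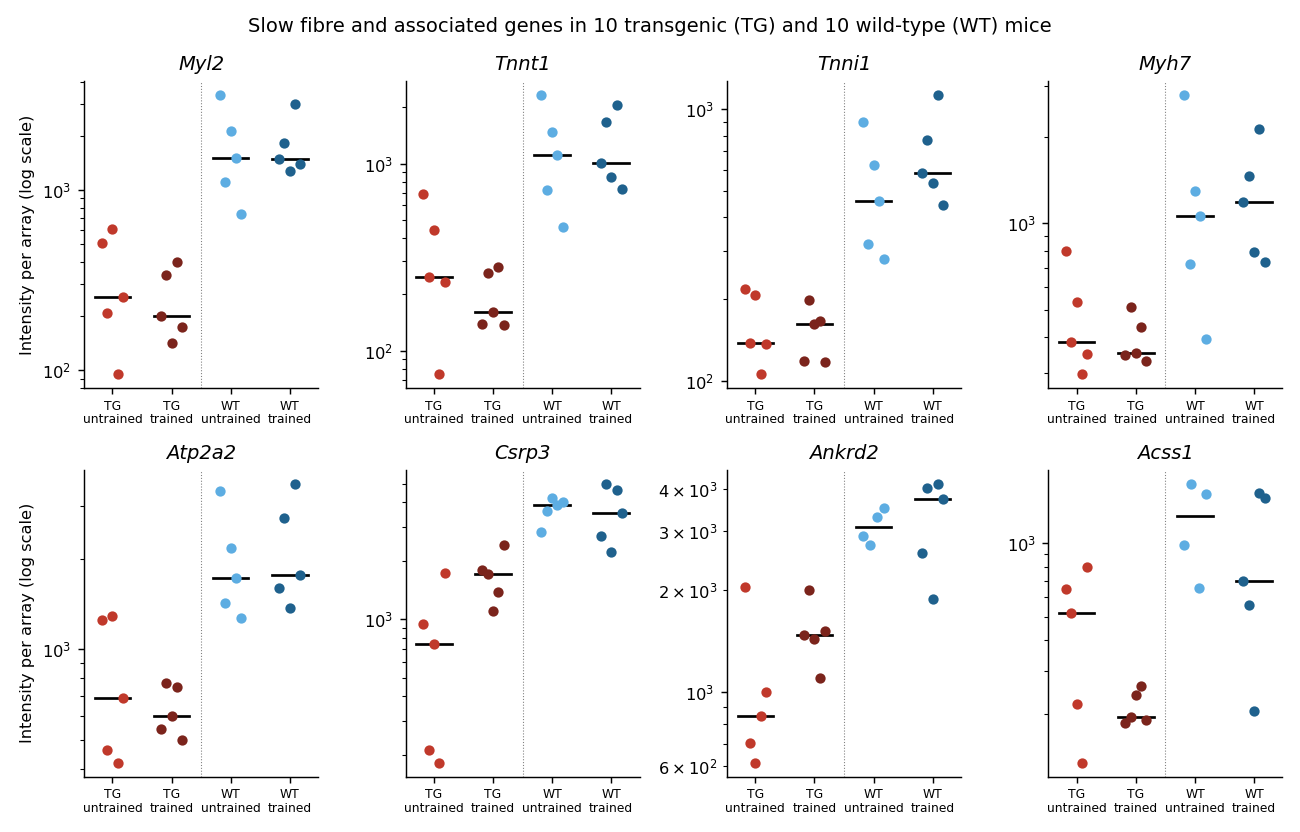
Intensity of 8 genes on each array (y axis, log scale) for untrained and trained transgenic mice and untrained and trained wild-type mice, with 1 point per mouse and a bar at the group median. In Myl2 and Tnni1 all 10 transgenic points sit below all 10 wild-type points, whereas Acss1 and Myh7 overlap.

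The mean deviation of the 8 slow fibre contractile genes from their own means gave each mouse 1 value on the log2 scale. It ran from -1.11 to -0.02 in transgenic mice and from -0.19 to 1.33 in wild-type mice. The only crossing was between TGUT-131 at -0.02 and WTUT-142 at -0.19. Mice of the same genotype thus differed widely in the level of slow-fibre transcripts. The median of the list was -1.02 log2 in untrained and -1.35 log2 in trained mice. Training itself, which called 4.99% of all probe sets, called none of the 8 genes, and their median training difference was -0.02 log2.

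The promoters of these genes are shown because the genes fell together, with the first promoter that RefSeq (GRCm38.p6) lists for each. Each sequence runs from 250 bases before to 50 bases after the start site. Myl2 is at chr5:122092474-122092773 (plus strand), Tnni1 at chr1:135799171-135799470 (plus strand) and Myoz2 at chr3:123034938-123035237 (minus strand). Capitals mark E-boxes (CANNTG, bound by myogenic bHLH factors) in Myl2 and Tnni1 and a MEF2 motif in Myoz2.
Myl2: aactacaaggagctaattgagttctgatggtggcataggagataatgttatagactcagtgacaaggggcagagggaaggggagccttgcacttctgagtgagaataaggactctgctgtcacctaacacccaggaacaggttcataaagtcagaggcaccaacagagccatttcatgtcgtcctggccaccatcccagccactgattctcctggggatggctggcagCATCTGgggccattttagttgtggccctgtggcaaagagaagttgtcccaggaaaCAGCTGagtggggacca
Tnni1: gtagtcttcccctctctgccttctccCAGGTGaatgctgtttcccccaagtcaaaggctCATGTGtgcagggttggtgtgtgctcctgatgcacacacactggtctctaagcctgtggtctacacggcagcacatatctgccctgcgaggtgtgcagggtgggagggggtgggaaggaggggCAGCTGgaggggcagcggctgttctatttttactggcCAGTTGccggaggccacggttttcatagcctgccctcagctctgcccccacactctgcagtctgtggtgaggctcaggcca
Myoz2: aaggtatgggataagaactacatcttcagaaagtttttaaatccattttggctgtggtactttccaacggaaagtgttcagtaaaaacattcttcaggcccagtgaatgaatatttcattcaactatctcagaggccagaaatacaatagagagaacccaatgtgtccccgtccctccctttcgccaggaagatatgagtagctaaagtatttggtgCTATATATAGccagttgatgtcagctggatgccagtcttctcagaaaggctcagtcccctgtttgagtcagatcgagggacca
Promoters were matched for 7 of the 9 slow contractile and calcium genes that fell, 10 promoters in all. The listed promoters of Tnni1 overlap each other, as do those of Myh7, so the 10 are not independent. An E-box on either strand was present in all 10, against 72.3% of 32851 promoters in the table. The MEF2 motif was present in 2 of the 10, those of Myoz2 and Casq2, against 3.19% of all promoters. These matches describe letters in the window only.

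Calcium handling genes of slow fibres followed the same direction. All 3 tested genes of that list fell, against 0.907% of all genes, with a median of -0.59 log2. Of these 3, 2 were called in an additive model and without the filter, and 1 with genotype alone. Atp2a2, which encodes the slow and cardiac calcium pump SERCA2, ranged from 419.9 to 1284 intensity in transgenic mice (median 644) and from 1266 to 3546 in wild-type mice (median 1747). Of the transgenic mice 9 lay below all wild-type mice, and the difference was -1.44 ± 0.22 log2 (2.72-fold lower, adjusted p = 0.00246). Both other Atp2a2 probe sets were called too, at -1.67 ± 0.23 and -0.50 ± 0.08 log2. Sln, sarcolipin, an inhibitor of the calcium pump, ranged from 113 to 276 in transgenic mice (median 172) and from 188 to 564 in wild-type mice (median 295), a fall of 0.59 ± 0.14 log2 units (adjusted p = 0.0456). Casq2, the calcium-binding protein of slow and cardiac stores, ranged from 140.3 to 249 in transgenic mice (median 189) and from 183 to 350.5 in wild-type mice (median 267). It dropped by 0.32 ± 0.06 log2 units (adjusted p = 0.00892). The call of Sln held in 8 of 20 leave-one-array-out fits, and that of Casq2 in all 20.

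Fast-fibre genes did not pass the test. None of 14 fast contractile genes and none of 9 fast calcium handling genes was called, with medians of 0.01 and 0.03 log2. Myh4, the myosin heavy chain of the fastest fibres, ranged from 13400.4 to 15321 intensity in transgenic mice (median 14223) and from 13634 to 14685 in wild-type mice (median 13943), a difference of 0.02 ± 0.02 log2 (adjusted p = 0.753). Myh1, of type IIx fibres, differed by 0.04 ± 0.05 log2 and Atp2a1, the fast calcium pump, by 0.01 ± 0.01 log2. Myh2, of fast oxidative fibres, ranged from 2430.5 to 7831 in transgenic mice (median 6774) and from 4187 to 8579.9 in wild-type mice (median 7796), a difference of -0.27 ± 0.17 log2 (adjusted p = 0.412). Atp2a1 and Myh4 lay near the top of the table's range of up to 19078.

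The Z-disc list held 4 genes that fell among 24 tested, against 0.907% of all genes, with a median of -0.17 log2. Csrp3, the muscle LIM protein, spread from 182 to 2417 intensity in transgenic mice (median 1243) and from 2220.0 to 4990.1 in wild-type mice (median 3742), with 9 transgenic mice below all wild-type mice. It dropped by 1.81 ± 0.29 log2 units (3.50-fold, adjusted p = 0.00357). Ankrd2, a stretch-responsive ankyrin repeat protein abundant in slow fibres, spread from 615 to 2053 in transgenic mice (median 1267) and from 1886 to 4149.6 in wild-type mice (median 3293), where WTUT-142 had an empty cell. It dropped by 1.34 ± 0.19 log2 units (adjusted p = 0.0015). Actn2, alpha-actinin-2, fell by 0.55 ± 0.10 and Pdlim1, a PDZ and LIM protein, by 0.49 ± 0.10 log2 units, with adjusted p = 0.0126 and 0.0221. A dimmer Pdlim1 probe set gave -0.16 ± 0.05 log2 and was not called. Mustn1 (-1.08 ± 0.29 log2, adjusted p = 0.071) and Xirp1 (-0.82 ± 0.26 log2, adjusted p = 0.111) had larger differences than Actn2 but varied more and were not called. Tcap, which caps titin at the Z-disc, differed by 0.18 ± 0.06 log2 and was not called.

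**Figure D2:**
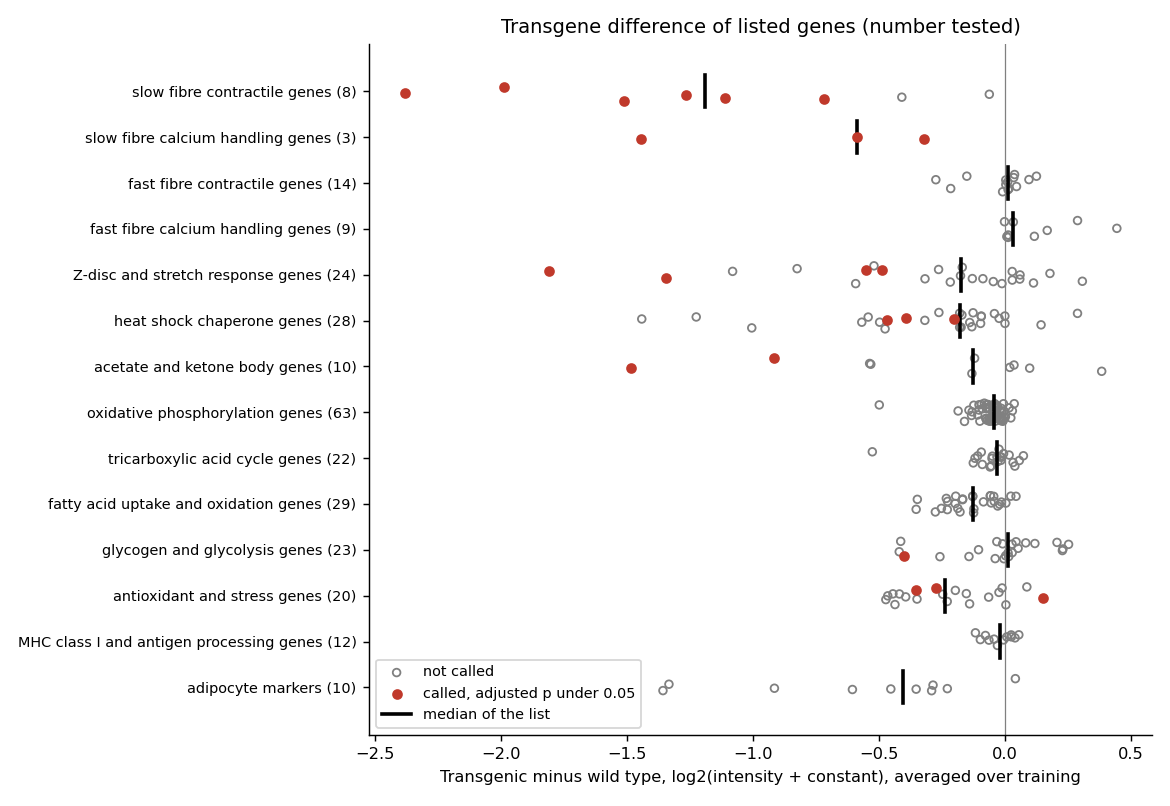
Transgenic minus wild-type difference (x axis, log2 of intensity plus the constant) of every tested member of 14 gene lists, with filled points for called genes and a bar at each list's median. The slow fibre contractile list has its median at -1.19 and the fast fibre contractile list at 0.01.

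Among genes of fuel use, 2 of 10 acetate and ketone body genes fell, against 0.907% of all genes. The list's median was -0.13 log2. Acss1, mitochondrial acetyl-CoA synthetase, ranged from 126 to 797 intensity in transgenic mice (median 229) and from 206 to 1751 in wild-type mice (median 985), of which WTUT-138 had an empty cell. The groups overlapped, the difference was -1.48 ± 0.33 log2 (adjusted p = 0.0339), and its call held in 10 of 20 leave-one-array-out fits. Bdh1, the ketone body enzyme beta-hydroxybutyrate dehydrogenase, ranged from 128.5 to 526 in transgenic mice (median 332) and from 390.4 to 1308 in wild-type mice (median 585). It dropped by 0.92 ± 0.21 log2 units (adjusted p = 0.0439), a call that held in 4 of 20 leave-one-array-out fits. Slc16a1, the monocarboxylate transporter MCT1, averaged 416 in transgenic and 642 in wild-type mice and was not called (-0.53 ± 0.13 log2, adjusted p = 0.056).

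Respiratory chain and citric acid cycle genes were not called in any instance. None of 63 oxidative phosphorylation genes passed. Of these 58 lay below 0, against 3922 of all 8486 genes, but with a median of only -0.04 log2. None of 22 tricarboxylic acid cycle genes (median -0.03), 29 fatty acid genes (median -0.13), 12 mitochondrial biogenesis regulators (median -0.05) and 9 creatine kinase and adenylate genes (median 0.02) passed. Cs, citrate synthase, differed by 0.03 ± 0.04 log2 and Ppargc1a, the coactivator PGC-1alpha, by -0.46 ± 0.26 log2 (adjusted p = 0.383). Idh2, mitochondrial isocitrate dehydrogenase, was nearest to a call in the cycle, at -0.53 ± 0.13 log2 (adjusted p = 0.0554). Training called 29 of the 63 oxidative phosphorylation genes, against 434 of all 8486 genes. The list's median training difference was 0.15 log2.

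In the glycogen and glycolysis list (median 0.01 log2), 1 gene of 23 was called, against 1.2% of all genes. This was Ugp2, which makes UDP-glucose for glycogen synthesis. It ranged from 3390.4 to 5011 intensity in transgenic mice (median 3685) and from 3650.3 to 6534 in wild-type mice (median 5174). All 5 of its probe sets fell, by between 0.40 and 0.47 log2 units, with adjusted p = 0.0149 on the brightest. Pdk4, the kinase that inhibits pyruvate dehydrogenase, varied from 1867 to 10441 in transgenic mice (median 5487) and from 3441 to 9019 in wild-type mice (median 8119), a difference of -0.49 ± 0.21 log2 (adjusted p = 0.236).

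Heat shock chaperones, which refold or escort damaged proteins, formed a list in which 24 of 28 tested genes lay below 0, with a median of -0.18 log2, against 3922 of 8486 genes below 0 overall. Of the 28, 3 fell, against 0.907% of all genes. The number called was 2 with quantile normalization, an additive model or genotype alone, and 1 of 16 tested without probe sets that can bind several transcripts. Hsph1, a large heat shock protein of the HSP110 family, ranged from 524 to 955 intensity in transgenic mice (median 822) and from 965 to 1223 in wild-type mice (median 1039), where WTUT-142 had an empty cell. The groups did not overlap, and the difference was -0.39 ± 0.07 log2 (adjusted p = 0.0131). Its second probe set gave -0.46 ± 0.11 log2 (adjusted p = 0.0439), and on that one the groups overlapped. Bag3, a co-chaperone that works with HSPB8 and HSP70 at the Z-disc, ranged from 1500.2 to 2244 in transgenic mice (median 1689.6) and from 2008 to 3972 in wild-type mice (median 2239). It dropped by 0.47 ± 0.09 log2 units (adjusted p = 0.0141), and 8 of 10 transgenic mice lay below all wild-type mice.

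The promoters of Hsph1 (chr5:149636287-149636586, minus strand) and Bag3 (chr7:128523333-128523632, plus strand) are shown because heat shock factor is known to bind elements in such promoters. Capitals mark heat shock elements, searched as GAANNTTC and TTCNNGAA on both strands; at the downstream end of Hsph1 a match of each pattern overlaps the other.
Hsph1: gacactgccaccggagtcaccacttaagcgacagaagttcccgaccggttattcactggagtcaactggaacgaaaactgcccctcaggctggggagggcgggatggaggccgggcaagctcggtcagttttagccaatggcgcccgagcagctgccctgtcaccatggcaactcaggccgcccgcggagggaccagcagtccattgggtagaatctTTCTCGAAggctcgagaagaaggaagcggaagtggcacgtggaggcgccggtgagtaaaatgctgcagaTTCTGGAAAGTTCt
Bag3: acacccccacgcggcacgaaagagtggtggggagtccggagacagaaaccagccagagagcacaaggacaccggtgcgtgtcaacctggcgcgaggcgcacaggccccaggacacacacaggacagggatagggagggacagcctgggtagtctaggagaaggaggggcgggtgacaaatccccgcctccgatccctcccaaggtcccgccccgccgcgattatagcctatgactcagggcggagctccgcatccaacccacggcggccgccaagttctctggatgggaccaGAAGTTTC
Hspa8, the other heat shock gene that fell, was not matched. All 3 listed promoters of Hsph1 and Bag3 held the element, against 15.1% of all promoters and none of the 10 slow-fibre promoters. The listed Hsph1 promoters overlap and hold the same elements, so they are not independent.

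Hspa8, the constitutive HSP70, ranged from 4409 to 5796 intensity in transgenic mice (median 5248) and from 5072 to 6706 in wild-type mice (median 5942), a fall of 0.20 ± 0.04 log2 units (adjusted p = 0.0221). Its difference was -0.35 ± 0.06 log2 in untrained and -0.06 ± 0.06 log2 in trained mice, with an unadjusted interaction p of 0.00269 that did not pass the adjustment. Dimmer Hspa8 probe sets gave -0.33 ± 0.11 and -0.31 ± 0.08 log2 in the average and were not called. The inducible HSP70 genes were chosen for mention after their values were seen. Hspa1b averaged 1286 in transgenic and 3455 in wild-type mice and Hspa1a averaged 848 in transgenic and 2035 in wild-type mice. Neither was called, at -1.44 ± 0.54 log2 (adjusted p = 0.18) for Hspa1b and -1.22 ± 0.52 log2 (adjusted p = 0.236) for Hspa1a. For Hspa1b the difference was -2.70 log2 in untrained and -0.18 log2 in trained mice. Zfand2a, an arsenite- and heat-inducible zinc finger protein that stands outside the list, ranged from 149 to 638 in transgenic mice (median 222) and from 287 to 828 in wild-type mice (median 497). It dropped by 0.75 ± 0.15 log2 units (adjusted p = 0.0154). A dimmer Zfand2a probe set gave -0.43 ± 0.09 log2 and was called, and another gave -0.19 ± 0.06 log2 and was not.

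**Figure D3:**
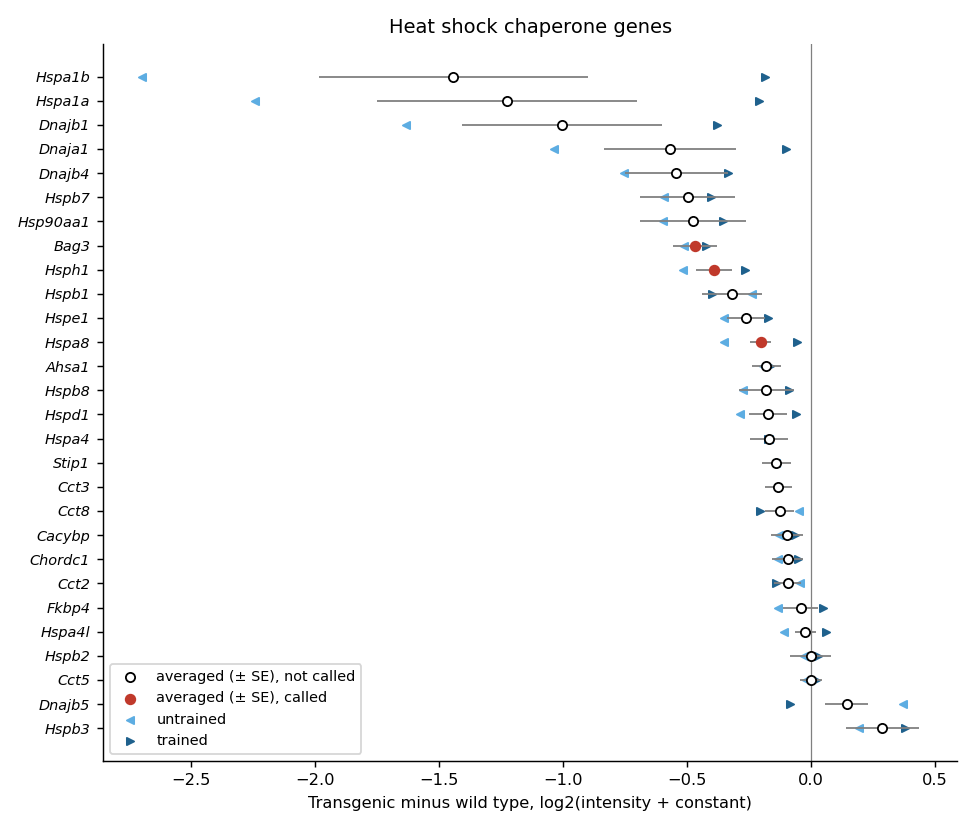
Transgenic minus wild-type difference (x axis, log2) of the 28 tested heat shock chaperone genes, averaged over training with standard errors, and in untrained and trained mice separately as triangles. Bag3, Hsph1 and Hspa8 are the called genes, and Hspa1b and Hspa1a, which were not called, stand at -2.70 and -2.24 log2 in untrained mice.

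Genes of class I antigen presentation did not pass the test in either direction. None of 12 tested genes of the class I list was called, with a median of -0.02 log2 and a range from -0.12 to 0.06 log2. H2-K1, a class I heavy chain, ranged from 737 to 1750.3 intensity in transgenic mice (median 1038) and from 784 to 1753 in wild-type mice (median 1072), a difference of -0.12 ± 0.15 log2 (adjusted p = 0.724). H2-D1 differed by -0.10 ± 0.16 log2 and Psmb8, an immunoproteasome subunit, by -0.03 ± 0.04 log2. B2m, the class I light chain, differed by 0.03 ± 0.12 log2, with a sign that turned in 4 leave-one-array-out fits and with array weights. Tap1, which carries peptides to class I molecules, was too dim to be tested. The labels do not say whether these probe sets can read the transgene's transcript, so these levels do not check the labels.

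H2-T3, a non-classical class I gene outside that list, was higher. It ranged from 319 to 395 in transgenic mice (median 345) and from 265 to 329.8 in wild-type mice (median 304), with 8 transgenic mice above all wild-type mice. The difference was 0.19 ± 0.04 log2 (adjusted p = 0.0201), and it was called in all 20 leave-one-array-out fits. Its probe set is of the kind that can bind related transcripts, so the gene it reads is uncertain within this family.

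Unfolded protein response and interferon genes gave few calls. Of 26 unfolded protein response genes 1 fell, against 0.907% of all genes, with a median of -0.06 log2. This was Atf4, a transcription factor of the integrated stress response, which ranged from 1781 to 2763 in transgenic mice (median 2007) and from 2022 to 3277 in wild-type mice (median 2718) and dropped by 0.33 ± 0.08 log2 units (adjusted p = 0.036). Its call held in 7 of 20 leave-one-array-out fits. Hspa5, the chaperone BiP, differed by -0.11 ± 0.08 log2 (adjusted p = 0.51) and Ddit3, CHOP, by -0.03 ± 0.05 log2 (adjusted p = 0.808). None of 12 interferon response genes was called (median 0.05 log2). Gbp6, an interferon-inducible GTPase outside the list, ranged from 69.9 to 853 in transgenic mice (median 188) and from 160.5 to 1154 in wild-type mice (median 589). It dropped by 1.22 ± 0.30 log2 units (adjusted p = 0.0497), and that call held in 4 of 20 leave-one-array-out fits.

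Of 20 antioxidant genes 2 fell and 1 rose, against 1.2% of all genes called. Among the 20, 17 lay below 0, against 3922 of all 8486 genes, with a median of -0.24 log2. Txn1, thioredoxin, ranged from 845 to 1645 in transgenic mice (median 1069.5) and from 1190.3 to 1641 in wild-type mice (median 1393), and dropped by 0.35 ± 0.08 log2 units (adjusted p = 0.0467). Sod1, cytosolic superoxide dismutase, dropped by 0.27 ± 0.07 log2 units (adjusted p = 0.0498). A dimmer Txn1 probe set gave 0.06 ± 0.05 log2 and was not called. These calls held in 4 (Txn1) and 7 (Sod1) of 20 leave-one-array-out fits. Nqo1, a quinone reductase, ranged from 136.1 to 176 in transgenic mice (median 148) and from 122 to 139.3 in wild-type mice (median 128.7), and rose by 0.15 ± 0.03 log2 units (adjusted p = 0.0117).

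Single genes of growth and stress signalling also fell. Phlda3, a p53 target that inhibits AKT, ranged from 327 to 856 in transgenic mice (median 548) and from 777 to 1552 in wild-type mice (median 1131), a difference of -0.87 ± 0.12 log2 (adjusted p = 0.0011). Its difference was -1.22 ± 0.17 log2 in untrained and -0.53 ± 0.17 log2 in trained mice. The unadjusted interaction p of 0.0103 did not pass the adjustment. Phlda3 was the 1 called gene of 10 p53 targets (median -0.08 log2), against 1.2% of all genes called. The median of the p53 list was -0.013 log2 in untrained and -0.535 log2 in trained mice, a gap that was not tested. Tnfrsf12a, the TWEAK receptor Fn14, ranged from 862 to 1616 in transgenic mice (median 1168) and from 1521 to 3411 in wild-type mice (median 2149.6). It dropped by 0.84 ± 0.12 log2 units (adjusted p = 0.00187), and its second probe set by 1.01 ± 0.13. Pdgfa, a platelet-derived growth factor chain, ranged from 262 to 380.0 in transgenic mice (median 327) and from 320.3 to 560.1 in wild-type mice (median 459), and dropped by 0.39 ± 0.06 log2 units (adjusted p = 0.00356). A dimmer Pdgfa probe set gave -0.02 ± 0.06 log2. Tnfrsf12a and Pdgfa were the 2 called of 20 growth factor and receptor genes (median -0.07 log2), against 1.2% of all genes called.

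Several other lists held 1 call or none, against 1.2% of all genes called. Acvr2b, an activin and myostatin receptor, dropped by 0.19 ± 0.04 log2 units (adjusted p = 0.0126) as the 1 called of 21 protein breakdown genes. Among these 21, 20 lay below 0, against 3922 of all 8486 genes, with a median of -0.27 log2. Rcan2, a calcineurin inhibitor, fell by 0.33 ± 0.07 (adjusted p = 0.0339), the 1 called of 17 calcineurin and slow-programme regulators (median 0.04 log2). The call of Rcan2 held in 10 of 20 leave-one-array-out fits, and a dimmer probe set was not called (-0.21 ± 0.08 log2). None was called of 17 glucocorticoid genes (median -0.24 log2), 13 myogenic and embryonic genes (median 0.02) and 8 neuromuscular junction genes (median 0.04). The glucocorticoid median was -0.0015 log2 in untrained and -0.49 log2 in trained mice, a gap that was not tested. Vegfa, an angiogenic growth factor, differed by -0.12 ± 0.05 log2 (adjusted p = 0.221).

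Some large falls came from genes outside the lists. Enc1, an actin-binding kelch protein, ranged from 99.5 to 557 in transgenic mice (median 184) and from 417 to 552 in wild-type mice (median 501). Of the transgenic mice 8 lay below all wild-type mice and 1 above them, and the difference was -1.02 ± 0.14 log2 (adjusted p = 0.000823). A second Enc1 probe set, at a mean of 247, gave only -0.11 ± 0.04 log2 (adjusted p = 0.218). Samd4, an RNA-binding SAM domain protein, fell by 0.77 ± 0.16 (adjusted p = 0.0221), Peli1, a ubiquitin ligase of innate immune signalling, by 0.64 ± 0.14 (adjusted p = 0.026) and Pla2g12a, a secreted phospholipase, by 0.61 ± 0.12 log2 units (adjusted p = 0.0138).

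The largest called rise in transgenic muscle was smaller than the largest falls. Aldh1a1, which makes retinoic acid from retinal, had the largest rise of the genes called on their brightest probe set: 956 to 1422 intensity in transgenic mice (median 1107) and 482 to 994 in wild-type mice (median 726). Of 10 transgenic mice 9 lay above all wild-type mice, and the difference was 0.64 ± 0.10 log2 (1.56-fold, adjusted p = 0.00358). It was the 1 called of 11 retinoid genes (median -0.01 log2), against 1.2% of all genes called. Ogn, the matrix proteoglycan osteoglycin, ranged from 187 to 355 in transgenic mice (median 246) and from 97.8 to 249.6 in wild-type mice (median 174), and rose by 0.44 ± 0.09 log2 units (adjusted p = 0.0254). Slc2a3, the glucose transporter GLUT3, ranged from 124 to 338 in transgenic mice (median 214) and from 94.7 to 172 in wild-type mice (median 144.7), and rose by 0.42 ± 0.08 (adjusted p = 0.0138). A second Slc2a3 probe set gave 0.42 ± 0.07 log2. Its wild-type mean lay below the filter, at an intensity of 126.2, so that probe set was tested only because of its level in transgenic mice. Slc2a3 was the 1 called of 18 insulin and IGF signalling genes (median -0.11 log2), in which the muscle transporter Slc2a4 differed by -0.15 ± 0.04 log2 (adjusted p = 0.082).

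Tef, a clock-output bZIP factor, ranged from 1410.0 to 1720.0 intensity in transgenic mice (median 1519) and from 933 to 1429 in wild-type mice (median 1209). It rose by 0.34 ± 0.06 log2 units (adjusted p = 0.00581). Tef was the 1 called of 13 clock genes (median 0.05 log2), against 1.2% of all genes called. Dbp, a related factor, averaged 374 in transgenic and 159 in wild-type mice, yet varied too much to be called (0.97 ± 0.32 log2, adjusted p = 0.124). Nr4a2, an orphan nuclear receptor, rose by 0.32 ± 0.07 (adjusted p = 0.0296), the 1 called of 19 immediate early and Nr4a genes (median -0.07 log2). Car14, a membrane carbonic anhydrase, rose by 0.36 ± 0.09 (adjusted p = 0.0467), the 1 called of 10 ion pump and channel genes (median 0.02 log2). Ctsc, the lysosomal protease cathepsin C, rose by 0.41 ± 0.09 (adjusted p = 0.042), and Tmod4, which caps thin filaments in skeletal muscle, by 0.32 ± 0.06 (adjusted p = 0.0154). Leaving out 1 array at a time kept the calls of Car14 in 5, Ctsc in 7 and Nr4a2 in 13 of 20 fits.

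**Figure D4:**
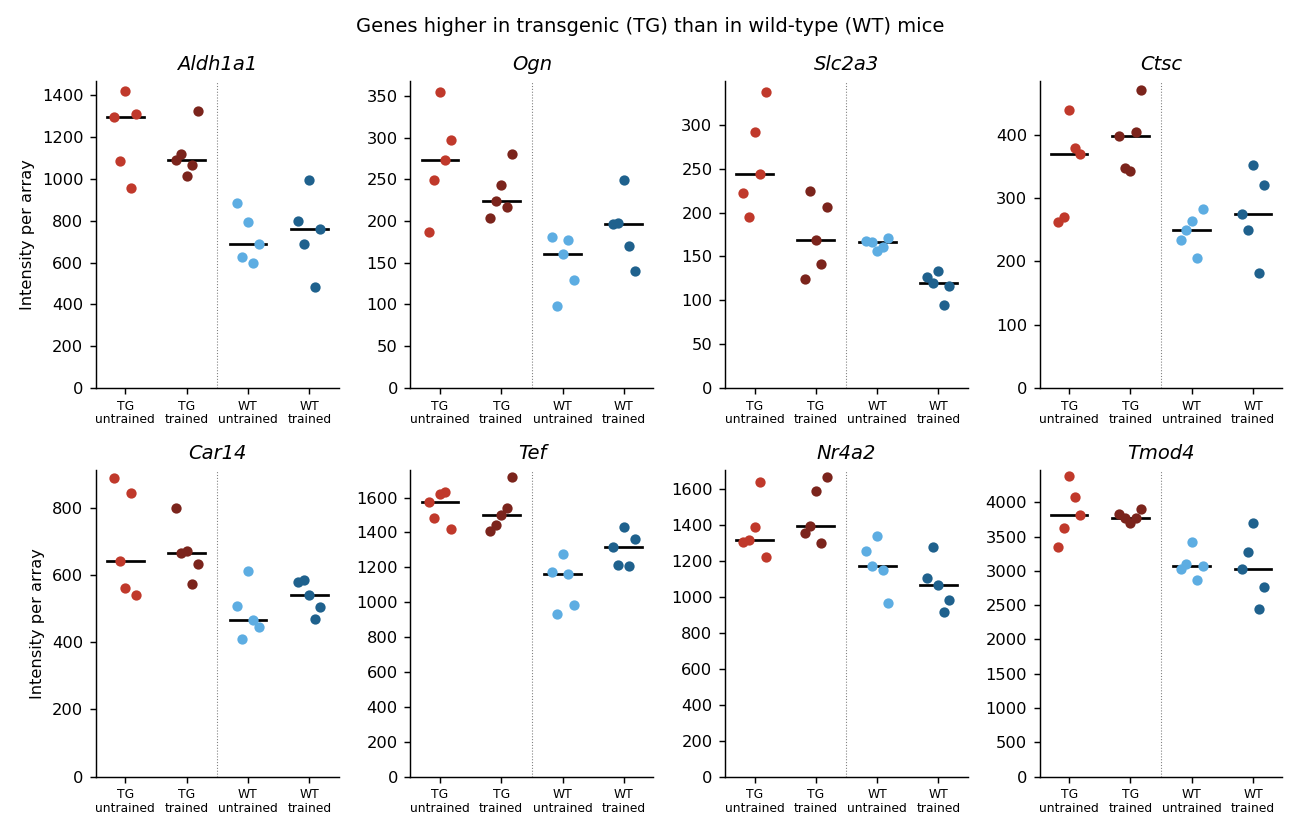
Intensity of 8 genes that were higher in transgenic mice (y axis, linear from 0), with 1 point per mouse and a bar at the group median. Aldh1a1 has the widest separation, with transgenic mice from 956 to 1422 and wild-type mice from 482 to 994.

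The other named rises were at most 0.31 log2. Epcam, an epithelial adhesion molecule, rose by 0.31 ± 0.07 but stayed dim, with medians of 159 in transgenic and 112 in wild-type mice. Its wild-type mean lay below the filter, at an intensity of 126.2, so it was tested only because of its level in transgenic mice. Its call held in 8 of 20 leave-one-array-out fits. Parm1, a membrane mucin, rose by 0.31 ± 0.06 and on its second probe set by 0.27 ± 0.06 log2 units. Wls, which escorts Wnt proteins to the surface, rose by 0.25 ± 0.06 and on its second probe set by 0.25 ± 0.05. The wild-type mean of that second Wls probe set also lay below the filter, so it was tested only because of its level in transgenic mice. Ces4a, a carboxylesterase, rose by 0.26 ± 0.06, Mthfd1, a folate enzyme, by 0.21 ± 0.05, Gdpd5, a glycerophosphodiesterase, by 0.21 ± 0.05 and Phc1, a polycomb subunit, by 0.20 ± 0.05. Rab12, a small GTPase, rose by 0.19 ± 0.05, Slc25a14, a mitochondrial carrier, by 0.17 ± 0.03 and Pcnx3 by 0.16 ± 0.04. Adjusted p in this group ran from 0.0164 for Parm1 to 0.0494 for Ces4a. Of 20 fits without 1 array, the calls held in 3 for Ces4a and Phc1, 5 for Gdpd5, 6 for Wls and Rab12, 7 for Pcnx3 and 19 for Mthfd1. A dimmer Mthfd1 probe set gave 0.11 ± 0.05 log2 and was not called. Ehd1, an endosomal recycling protein, rose by 0.25 ± 0.06 on its brightest probe set, while 3 others gave between -0.14 and -0.05 log2 and were not called.

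Other cell types were followed through their markers. Ighm, the immunoglobulin M heavy chain of B lymphocytes, ranged from 819.7 to 1873 intensity in transgenic mice (median 1123) and from 1484 to 3279.9 in wild-type mice (median 1866), and dropped by 0.72 ± 0.13 log2 units (adjusted p = 0.0125). The 4 other Ighm probe sets gave between -0.21 and 0.14 log2 and none was called, and none of the other 3 tested B lymphocyte markers was. The summed B lymphocyte markers ran from 1942 to 3060 in transgenic and from 2637 to 4020 in wild-type mice. Cdh5, the endothelial cadherin, ranged from 217 to 316 in transgenic mice (median 265) and from 297 to 403 in wild-type mice (median 341), and fell by 0.30 ± 0.06 (adjusted p = 0.0221). It was the 1 called of 10 endothelial markers (median -0.08 log2), against 1.2% of all genes called. The summed endothelial markers ran from 3570.5 to 4432 in transgenic and from 3666 to 4572 in wild-type mice.

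Thbs4, a thrombospondin of tendon and muscle matrix, ranged from 321 to 640.1 in transgenic mice (median 431) and from 457 to 965 in wild-type mice (median 626). It dropped by 0.51 ± 0.12 log2 units (adjusted p = 0.0497), a call that held in 3 of 20 leave-one-array-out fits. It was the 1 called of 4 tendon markers (median 0.03 log2) and, with Ogn, 1 of 2 called of 28 collagen and matrix genes (median 0.05 log2). The share called of all genes was 1.2%. None of 10 adipocyte markers was called. Of these 9 lay below 0, against 3922 of all 8486 genes, with a median of -0.40 log2. The summed adipocyte markers ran from 7529 to 25765 in transgenic and from 9141 to 28308 in wild-type mice. No gene was called among 5 T lymphocyte and NK cell, 15 macrophage and dendritic, 7 fibroblast, 8 Schwann cell, 8 smooth muscle and pericyte, 3 satellite cell, 2 red blood cell, 7 mast cell and granulocyte markers and 2 sex-linked genes. Their medians lay between -0.05 and 0.07 log2. Cd8a, of cytotoxic T cells, differed by 0.12 ± 0.07 log2 (adjusted p = 0.402), and Cd68, of macrophages, was too dim to be tested, as was Xist, and Ddx3y was not analysed here. The part of the adipocyte, endothelial and B lymphocyte signals in the slow-fibre and metabolic results was not tested.

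The averaged difference was set beside its values in each training state. In untrained mice alone 15 probe sets (0.11%) were called, 2 higher (0.0147%) and 13 lower (0.0958%), and in trained mice alone 7 (0.0516%), all lower. Myl2 and Tnni1 were called in both states. Myl2 differed by -2.20 ± 0.39 log2 in untrained and -2.57 ± 0.39 log2 in trained mice, and Tnni1 by -1.28 ± 0.25 log2 in untrained and -1.74 ± 0.25 log2 in trained mice. All 167 probe sets called in the average had the same sign in both states, which their selection on the average favours, and 91 were larger in trained mice. Fitted to the compared groups alone, the untrained comparison had no calls and the trained comparison had 26, 1 higher and 25 lower. Without the trained wild-type mouse with 822 empty cells, 1.05% of probe sets were called in trained mice.

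No probe set was called for a difference of the transgene effect between training states in limma, with 395 of 13575 at an unadjusted p under 0.05 and a smallest adjusted p of 0.9999. Of the 167 called probe sets, 12 had an unadjusted interaction p under 0.05. Among the 57 named genes called in the average, Csrp3 had the widest gap between states, at -2.56 ± 0.40 log2 in untrained and -1.05 ± 0.40 log2 in trained mice (unadjusted p = 0.0155). Enc1 went the other way, at -0.60 ± 0.19 log2 in untrained and -1.43 ± 0.19 log2 in trained mice (unadjusted p = 0.00642). Pdgfa was at -0.61 ± 0.09 log2 in untrained and -0.18 ± 0.09 log2 in trained mice (unadjusted p = 0.00281). With 5 mice per group, a missed adjustment does not show that the effect was equal in both states.

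**Figure D5:**
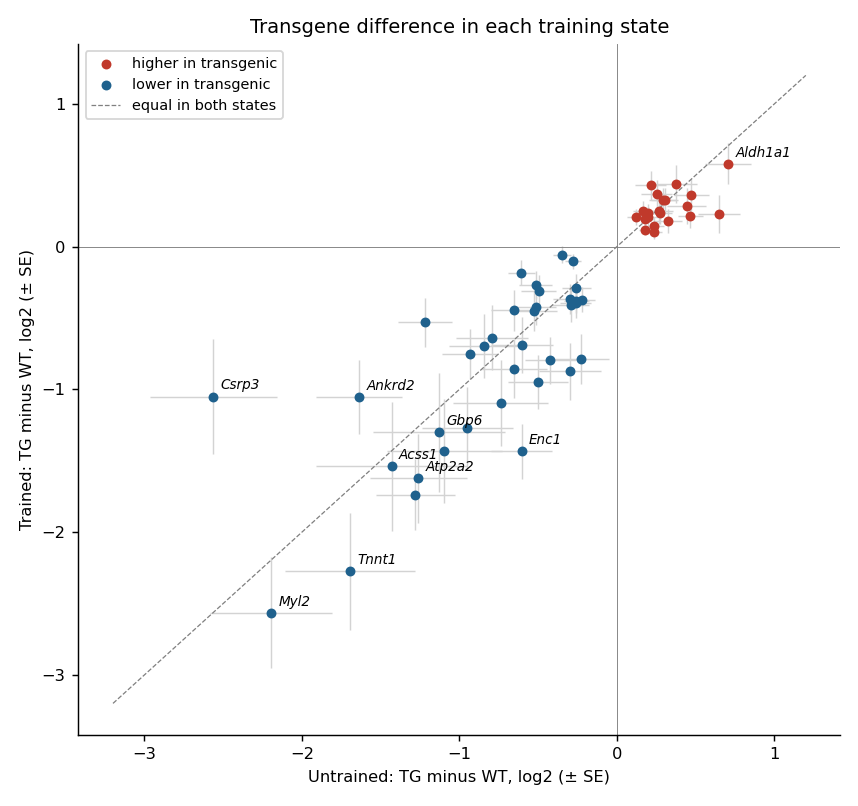
Transgenic minus wild-type difference in untrained mice (x axis, log2) against that in trained mice (y axis, log2) for the 57 named genes called in the average, with standard errors and a dashed line where both are equal. Myl2 and Tnnt1 lie far below 0 on both axes, and Csrp3 lies further from 0 in untrained mice.

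The same fit called 678 probe sets (4.99%) for training averaged over genotypes, 327 higher (2.41%) and 351 lower (2.59%). Of the genes named above with a transgene call, Slc2a3, Zfand2a, Atf4 and Casq2 also passed for training, with adjusted p = 0.0134, 0.0174, 0.0369 and 0.00421. Across all tested probe sets, 6 (0.0442%) separated the 10 transgenic from the 10 wild-type mice without overlap, 5 of them below (0.0368%) and 1 above (0.00737%). Those below were read from Myl2, Tnni1, Hsph1, Myl3 and Atp2a2, the last 2 on a dimmer probe set, and the 1 above has no gene symbol in the annotation. A further 34 genes were called on a dimmer probe set while their brightest one was not. Among these, Smad3, a TGF-beta signal transducer, averaged 342 in transgenic and 179 in wild-type mice on the called probe set (0.67 ± 0.16 log2, adjusted p = 0.049) and gave 0.19 ± 0.07 log2 on the brightest. Ogt, the enzyme that adds O-GlcNAc to proteins, was called on a pair of probe sets at 0.28 ± 0.05 and 0.31 ± 0.06 log2, against 0.12 ± 0.04 on the brightest. Mcl1, an anti-apoptotic BCL2 relative, fell on 3 probe sets by between 0.49 and 0.54 log2 units, against -0.34 ± 0.11 log2 on the brightest (adjusted p = 0.111).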

How the data were processed

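Total RNA of skeletal muscle from 20 mice was labelled with biotin, per the labels, and hybridised to 1 array per mouse. The authors deposited intensities on a linear scale, already comparable between arrays as read from the values, by summary and scaling methods not given in the sources used here. Of 22690 probe sets, 64 controls were left out. Values were used as log2(intensity + 66.7), the constant being the table's 20th percentile, and 13575 probe sets with a mean above the 40th percentile were tested. The 1745 empty cells (0.385% of the table) were treated as missing. Symbols came from the platform's annotation: 20380 probe sets carry 1 symbol, 691 several and 1555 none, and 20351 symbols matched RefSeq (GRCm38.p6).

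The 4 group means were fitted in limma 3.58.1 (R 4.3.3) with a variance trend (16 residual and 3.47 prior degrees of freedom). The contrast averages transgenic minus wild type over training states, so training acts as a block. Tests are two-sided, adjusted by Benjamini-Hochberg over all tested probe sets. On simulated data with 200 of 13575 probe sets changed, this comparison recovered 73.7% of changes of 0.3 log2, 91.8% of 0.5 and 98.8% of 1. False calls made up 4.78% over 10 simulations. These rates describe the simulated data only. In the real data, leaving out 1 array gave between 79 and 525 calls in the averaged comparison. The share of false calls among the real calls was not tested.

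Named genes are the 20 highest and 20 lowest called, called members of the 44 lists, called genes without overlap between genotypes, and 20 set genes. Those set genes are H2-K1, H2-D1, B2m, Tap1, Psmb8, Myh7, Myh2, Myh1, Myh4, Atp2a1, Hspa5, Ddit3, Cd8a, Cd68, Ppargc1a, Pdk4, Cs, Vegfa, Xist and Ddx3y. Other genes, including list members that missed the threshold and genes called on a dimmer probe set, were named after their values were seen. The members, lists and tests were chosen with earlier results of these data known. Promoter sequences are RefSeq's, and motifs were searched on both strands.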

Additional observations from a re-analysis of the deposited data

Results flagged for a closer look

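Of 283 groups of 5 arrays checked over 72 named genes, 7 held a mouse far from the other 4. The threshold gives 1 in 20 by chance for unselected groups. Of the 72 genes, 57 were called in the average, which favours a small spread, so the shares cannot be compared. Gbp6 stood at 853 intensity in the untrained transgenic mouse TGUT-147, against 138.7 to 243 in the rest of its group. Pla2g12a stood at 214 in the trained transgenic mouse TGT-140, against 168 to 178 in the rest of that group. Myh2 was low at 4953 in the trained transgenic mouse TGT-132, against 6650.5 to 7067 in the rest. Nqo1 was low at 136.1 in the trained transgenic mouse TGT-128, against 146.1 to 148.9 in the rest. Mthfd1 was low at 306 in the trained wild-type mouse WTT-141, against 337 to 344 in the rest of its group. Ces4a was low at 244 in the untrained transgenic mouse TGUT-139, against 338 to 373 in the rest. Parm1 was high at 433 in the untrained transgenic mouse TGUT-146, against 317 to 345 in the rest.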

How the results depend on the processing

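No paired analysis was possible because every mouse carries a number of its own, so groups share no replicate number. All 57 called named genes kept their direction in every alternative run; 27 also kept their call in each one that tested them. The averaged count of 167 became 111 without the filter, 662 with array weights, 89 without probe sets that can bind several transcripts, 102 at 1 probe set per gene, 399 without the 2 arrays with the most empty cells and 464 with the Gapdh 3' over 5' ratio as covariate. Probe sets called higher were 0.324% of those tested, against 0.832% with quantile normalization, 0.214% with median centring, 1.46% with array weights, 0.281% without shared probe sets, 0.295% at 1 probe set per gene, 0.855% without the 2 arrays and 1.16% with the Gapdh covariate. Those called lower were 0.906%, against 0.358% without the filter, 3.42% with array weights, 0.589% with genotype alone, 0.720% without shared probe sets, 0.907% at 1 probe set per gene, 2.08% without the 2 arrays and 2.25% with the Gapdh covariate. Leaving out 1 array gave 79 to 525 calls, with 0.118% to 1.02% of tested probe sets higher and 0.457% to 2.84% lower. The number was 90 without TGT-128, 103 without TGT-132, 83 without TGT-143, 90 without TGUT-146, 336 without TGUT-147, 100 without WTT-129, 79 without WTT-141, 103 without WTT-144, 96 without WTUT-135, 100 without WTUT-142 and 525 without the trained wild-type mouse with the most empty cells.

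In untrained mice 15 calls became 0 with those groups alone (0 higher, 0 lower), and the 2 higher became 5 with quantile normalization and 1 with centring; leaving out 1 array gave 2 to 26 (0 to 5 higher, 2 to 22 lower). In trained mice the 7 calls, all lower, were 0.0516% of those tested; they became 0.192% with those groups alone (0.00737% higher, 0.184% lower) and 0.0147% to 1.05% without 1 array (0% to 0.0958% higher, 0.0147% to 0.950% lower). Untrained calls were 2 when WTUT-138, TGUT-139 or WTUT-135 was left out and 26 without TGUT-145; trained calls were 2 when WTT-141, TGT-143 or TGT-133 was left out and 15 without TGUT-145. The interaction stayed at 0 in every fit without 1 array. Training's 678 became 409 with centring (203 higher, 206 lower) and 279 to 1285 without 1 array (160 to 634 higher, 109 to 660 lower). The 6 probe sets without overlap became 10 with quantile normalization. Called slow contractile genes numbered 3 of 4 tested without probe sets that can bind several transcripts and 5 to 7 without 1 array. Slow calcium genes numbered 1 of 3 with genotype alone, 1 of 1 tested without shared probe sets and 2 to 3 without 1 array. Z-disc genes numbered 7 with array weights and 4 to 6 without 1 array; heat shock genes numbered 1 of 16 tested without shared probe sets and 2 to 4 without 1 array. Among uncalled genes, Ddit3 turned to 0.00279 log2 without the 2 arrays with the most empty cells and ran from -0.0477 to 0.000634 without 1 array. B2m turned to -0.0623 log2 with array weights and ran from -0.0485 to 0.0834 without 1 array. The causes were not tested.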
